A study of Homo sapiens with 6 samples.

Results

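The genes described here are 9 members of the transforming growth factor beta (TGF-beta) pathway: the ligands TGFB1, TGFB2 and TGFB3, the receptors TGFBR1, TGFBR2 and TGFBR3, the signal transducers SMAD3 and SMAD7, and the secreted target TGFBI. They were found by gene symbol, from a list made with earlier results of these data known, and each was present as 1 row of the 54644 gene rows of the deposited tables. All 9 passed the filter on low counts, after which 14433 genes were tested. TGFB1 passed it with counts of 11.4 to 19.9 in the CTTN libraries, against 2.06 to 9.58 in the vector controls, so it was kept through the group in which it was high.

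The study asked how cortactin, an actin-binding protein encoded by CTTN, affects SKBR3 cells, a HER2-amplified human breast adenocarcinoma line of epithelial type. Cells were infected with a lentivirus carrying either the empty pLVX vector (control) or pLVX with a CTTN cDNA (CTTN), and both arms were selected with puromycin. Polyadenylated RNA was sequenced from 3 libraries of each arm, described as biological replicates. The GEO extraction text also uses the word tumors for this material, while the study's methods describe cells, and the libraries were treated here as cultured cells. Both groups share the parental line, the vector backbone and the selection. Each arm is a stable line, and whether it began from 1 clone or a pool is not given in the sources used here, so the infection and selection of each line cannot be told apart from the cDNA it carries. Because the material is bulk RNA, fewer cells of a kind and less RNA per cell cannot be told apart either.

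TGF-beta ligands are secreted in a latent form and, once released, bind a pair of serine/threonine kinase receptors, TGFBR2 and TGFBR1. The type II receptor phosphorylates the type I receptor, which in turn phosphorylates SMAD2 and SMAD3, and these enter the nucleus with SMAD4 to regulate target genes. SMAD7 is an inhibitory SMAD that is itself a target and closes a feedback loop. In breast epithelium the pathway is known both for growth arrest and, in carcinoma cells, for epithelial-mesenchymal transition and matrix production.

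CTTN mRNA itself was 304 ± 4.19 CPM (TMM-normalised counts relative to library size, ± SD, n = 3) in the controls and 775 ± 246 CPM in the CTTN libraries, a log2 difference of 1.35 ± 0.22 (SE, adjusted p = 0.0249, edgeR quasi-likelihood test). The CTTN libraries read 793, 1011 and 520 CPM, all above the highest control at 307 CPM. Depth was 34.9 to 41.3 M fragments assigned to genes per library. Libraries 1 and 3 of the CTTN group stood apart from the rest by transcript length. In library 3, genes whose main isoform was under 1 kb lay at a median log2 of 0.58 over the control mean and genes over 6 kb at -0.76, while library 1 gave 0.23 and -0.41 and library 2 gave 0.01 and -0.01. The share of counts in ribosomal protein genes moved with this, at 4.62 to 5.09% in controls and 5.91, 4.69 and 7.48% in CTTN libraries 1, 2 and 3. CTTN library 2 correlated more closely with the controls (mean r = 0.991, log2 CPM across genes) than with the other CTTN libraries (0.983). Values of each gene are therefore also given for library 2 alone, without library 3, and with per-library offsets for transcript length and GC content, and what part the length drift had in each difference was otherwise not tested. Of the epithelial and HER2 markers ERBB2, EPCAM, KRT8, KRT18, KRT19, CLDN4 and CLDN7 were expressed in every library, and CDH1 stayed at or below 0.244 FPKM. In summed FPKM (fragments scaled by transcript length and depth) that list was 7134 to 7357 in controls and 6622 to 10105 in CTTN libraries. Fibroblast markers summed to 34.2 to 38.9 and 34.7 to 40.7 FPKM, with COL3A1, DCN, LUM and PDGFRB under 0.1 FPKM throughout and most of the sum in a row that joins PDGFRA with FIP1L1. The 4 immune markers reported summed to 0.467 to 0.665 and 0.670 to 0.715 FPKM (CD3E under 0.1), and endothelial markers to 4.20 to 4.65 and 1.55 to 2.19 FPKM (PECAM1 and KDR under 0.1). The endothelial sum separated the groups, mostly through CDH5, and the immune sum did so by a narrow margin. Whether the RNA came from culture or from tumors cannot be settled from the labels. Their part in the differences described next was not tested.

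Of the 9 genes, 4 were lower in CTTN-overexpressing cells at an adjusted p under 0.05, and none was higher. They were a ligand (TGFB2), the type II receptor (TGFBR2), a receptor-activated SMAD (SMAD3) and a secreted target (TGFBI), and their levels in controls were 1.60 to 2.09 times those in CTTN cells. Across all genes tested, 606 passed (331 higher and 275 lower), which is 4.2% in either direction, 1.91% for lower and 2.29% for higher. With an added limit of 1.5-fold the same 4 genes passed, against 1.44% of all genes lower. The median log2 difference of the 9 genes was -0.39, and that of all genes tested was 0.01. CPM values did not overlap between groups for 7 of the 9, with 6 lower and 1 higher in CTTN cells. The 1 higher was TGFB1, kept by the filter through the group in which it was high, and it is given no weight in this count. Such a separation was frequent in these libraries, at 19.4% of all genes for lower and 19.3% for higher. All p-values measure the spread between 3 and 3 libraries.

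**Figure D1:**
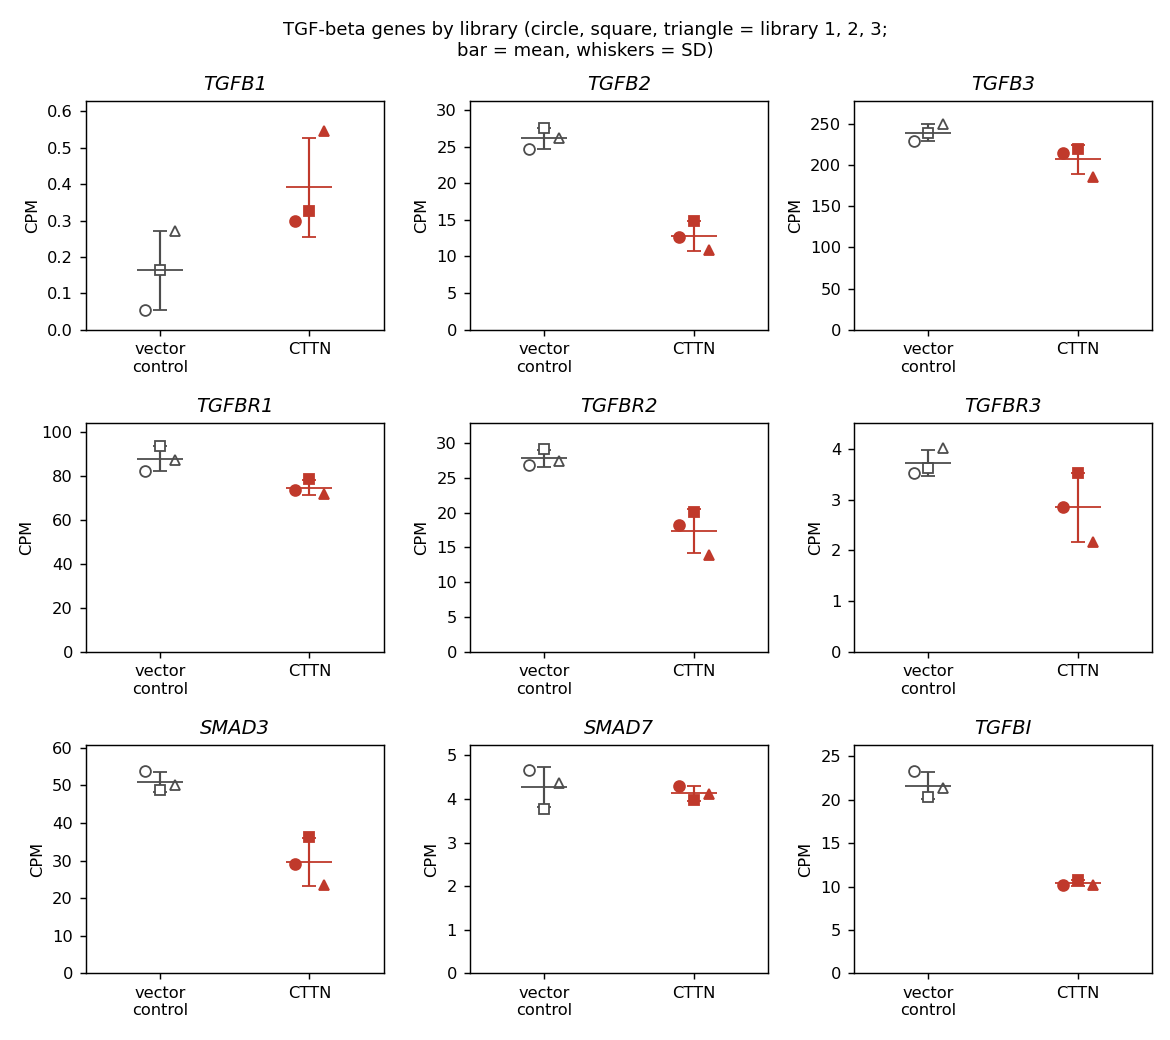
CPM of each TGF-beta gene (vertical axes, each from 0) in vector control and CTTN libraries (3 points each, bar at the mean, whiskers of 1 SD). TGFB2, TGFBR2, SMAD3 and TGFBI were lower in all 3 CTTN libraries than in any control, while the groups overlapped for TGFBR3 and SMAD7.

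The stretches of 250 bases that precede the annotated starts of the 4 lower genes are shown because these genes fell together. They were read from RefSeq promoter windows on GRCh38.p14, which held all 9 genes, and all 4 lie on the + strand. TGFB2 is at chr1:218345086-218345335, TGFBR2 at chr3:30606351-30606600, SMAD3 at chr15:67065352-67065601 and TGFBI at chr5:136028738-136028987. TGFBR2 has 2 windows in the table, of which the one shown holds the start of the deposited locus, at 30606502. Most of that window lies inside the RefSeq gene, which starts at 30606356. The TGFBI window also holds the start of its deposited locus, at 136028895. Those of TGFB2 and SMAD3 do not hold theirs, at 218346235 and 66984108. SMAD3 has 5, and the one shown precedes its outermost RefSeq start. Capitals mark matches on either strand to a SMAD-binding sequence (CAGACA), an AP-1 sequence (TGANTCA) or a cyclic AMP response element core (TGACGT).
TGFB2: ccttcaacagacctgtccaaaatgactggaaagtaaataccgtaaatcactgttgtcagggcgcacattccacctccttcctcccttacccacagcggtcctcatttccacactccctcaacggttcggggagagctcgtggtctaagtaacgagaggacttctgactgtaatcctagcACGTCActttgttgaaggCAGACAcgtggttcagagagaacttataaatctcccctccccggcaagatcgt
TGFBR2: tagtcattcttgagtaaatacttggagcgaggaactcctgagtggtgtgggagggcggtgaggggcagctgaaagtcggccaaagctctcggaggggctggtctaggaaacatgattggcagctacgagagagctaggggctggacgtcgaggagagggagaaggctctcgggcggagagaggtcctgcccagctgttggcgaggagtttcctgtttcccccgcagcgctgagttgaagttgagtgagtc
SMAD3: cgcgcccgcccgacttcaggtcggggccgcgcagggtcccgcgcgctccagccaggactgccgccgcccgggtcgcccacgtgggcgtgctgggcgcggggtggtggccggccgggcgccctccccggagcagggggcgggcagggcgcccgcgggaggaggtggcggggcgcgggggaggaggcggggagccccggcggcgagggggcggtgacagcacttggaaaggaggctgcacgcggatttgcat
TGFBI: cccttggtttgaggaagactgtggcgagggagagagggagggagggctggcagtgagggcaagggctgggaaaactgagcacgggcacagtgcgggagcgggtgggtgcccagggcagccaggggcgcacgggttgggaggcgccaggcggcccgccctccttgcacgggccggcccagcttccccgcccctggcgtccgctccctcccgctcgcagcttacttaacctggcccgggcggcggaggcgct
Only the TGFB2 window held any of these letters. Its CAGACA began 53 bases before the start, and TGACGT, read on the opposite strand, began 71 bases before it. The same letters occurred in 13.6% (CAGACA), 6.57% (TGANTCA) and 7.10% (TGACGT) of the 35116 windows of this length, and a match is a description of letters, not of a bound site. The windows differed in composition, with a GC content of 50.4% for TGFB2, 58.4% for TGFBR2, 72.8% for TGFBI and 80.8% for SMAD3, against a median of 58% over all windows.

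Levels per transcript length placed TGFB3 far above the other members. In controls its FPKM was 91.9 ± 5.01 (SD, n = 3). TGFBR1 followed at 17.8 ± 1.26, then SMAD3 at 9.21 ± 0.58, TGFBI at 8.28 ± 1.12, TGFB2 at 7.02 ± 0.21 and TGFBR2 at 6.19 ± 0.26. SMAD7 (2.33 ± 0.02), TGFBR3 (0.625 ± 0.06) and TGFB1 (0.103 ± 0.08) were the lowest. Control libraries of neighbours in this order overlapped only for SMAD3 and TGFBI. SKBR3 cells of both groups thus carried mostly TGFB3 among the ligand mRNAs, and the type I receptor exceeded the type II receptor per length in every library.

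**Figure D2:**
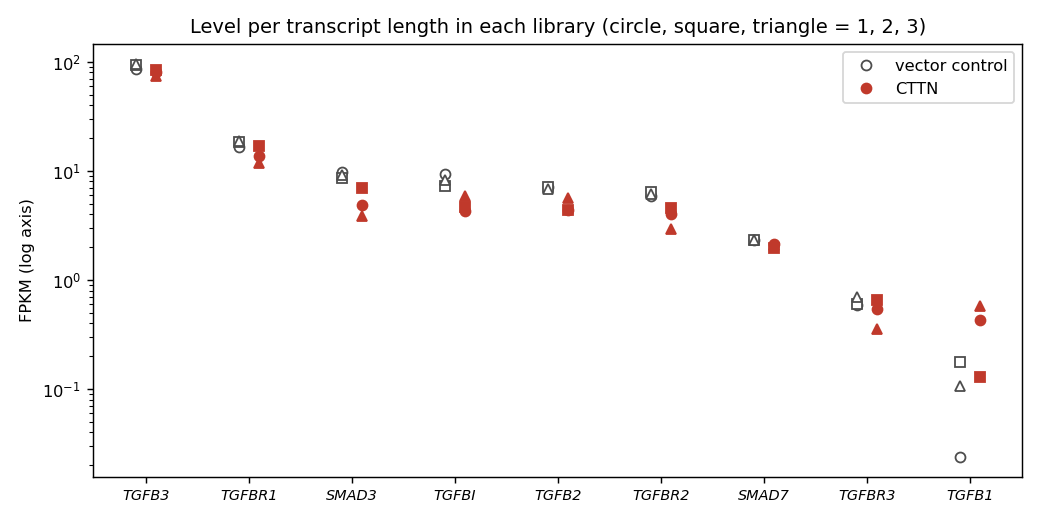
FPKM (log axis) of each gene in every library, ordered by the control mean, with open symbols for vector control and filled symbols for CTTN. TGFB3 lay highest at 91.9 FPKM and TGFB1 lowest at 0.103 FPKM in controls.

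Among the ligands, TGFB2 fell. Its row (XLOC_002211, chr1:218346235-218444619, GRCh38) also carries the small transcript TGFB2-OT1. It read 12.7, 14.9 and 10.9 CPM in CTTN libraries 1, 2 and 3 and 24.7, 27.5 and 26.2 CPM in the controls. Every CTTN library lay well below every control, and library 2, whose length profile matched the controls, was the least low of the 3. The log2 difference was -1.03 ± 0.13 (SE, adjusted p = 0.0106, edgeR), or 2.04-fold lower, on counts of 397 to 1009 per library. Library 2 alone lay at -0.81 against the control mean. With length and GC offsets the difference was -0.72 ± 0.06 (adjusted p = 0.000829, edgeR), and without library 3 it was -0.92 ± 0.10 (adjusted p = 0.00149, edgeR).

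Except in CTTN library 3, the TGFB2 reads came mainly from transcript ENST00000366930, the 4969-base isoform of start-site group TSS5418. In that library the isoform held 185 of 397 estimated counts. TSS5418 read 22.1, 26.5 and 25.9 CPM in controls and 10.5, 14.5 and 5.09 CPM in CTTN libraries 1 to 3, without overlap. Its log2 difference was -1.31 ± 0.38, with an adjusted p of 0.478 by edgeR and 0.0813 by DESeq2. No start-site group of the 35916 tested was called by edgeR, although 3730 (10.4%) had an unadjusted p under 0.05 and DESeq2 called 766. A 1371-base isoform, ENST00000625474 (TSS5421), was given 1.52, 0.00395 and 3.01 FPKM in CTTN libraries 1, 2 and 3 and 0.00399 to 0.354 FPKM in controls. The long isoform had 2.31, 3.68 and 1.06 FPKM in the same CTTN libraries and 5.17 to 6.10 in controls, so the short one was high in libraries 1 and 3 and the long one low in all 3. TSS5420, the site of ENST00000479322, was at 0.785 ± 0.58 FPKM in controls and 0.833 ± 0.66 in CTTN libraries. The FPKM of the whole gene, in which short isoforms weigh more, was 4.82 ± 0.73 in CTTN and 7.02 ± 0.21 in controls, a smaller contrast than in CPM (log2 -0.47 ± 0.12 on the log2(FPKM + 1) scale, adjusted p = 0.117, limma). The antisense transcript TGFB2-AS1 held 1.03 to 5.54 counts in any library.

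TGFB3, the most abundant ligand, was not called by edgeR with all libraries. Without CTTN library 2 it was called lower (log2 -0.26 ± 0.09, adjusted p = 0.041, edgeR), in a fit that called 24.2% of all genes lower. It read 215, 219 and 186 CPM in CTTN libraries and 230, 239 and 250 CPM in controls. All CTTN values lay below the controls, by a narrow margin for libraries 1 and 2. The log2 difference of -0.21 ± 0.09 did not pass (adjusted p = 0.170, edgeR). Most of its reads were assigned to ENST00000238682 (TSS38221), at 51.8 ± 2.87 FPKM in controls and 46.2 ± 7.16 in CTTN libraries. In library 3 a 1911-base isoform from TSS38219 was at 28.3 FPKM, compared with 10.3 and 2.72 in CTTN libraries 1 and 2 and 2.25 to 4.66 in controls. CTTN libraries 1 and 3, the 2 with a length drift, lay above all controls for that isoform and library 2 within them. TSS38219 as a whole had a log2 difference of 1.85 ± 0.82 (adjusted p = 0.482, edgeR). TSS38220, the site of a 3392-base isoform, read 68.4, 77.9 and 74.1 CPM in controls and 47.0, 63.2 and 22.1 CPM in CTTN libraries, without overlap (log2 -0.74 ± 0.37, adjusted p = 0.493, edgeR). TSS38224, the site of ENST00000555193, was at 3.48 ± 0.71 CPM in controls and 1.55 ± 1.86 in CTTN libraries, with overlap. The TGFB3 row spans 510 kb, beyond the RefSeq gene, so reads of neighbouring transcription cannot be separated in its count.

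TGFB1, a ligand widely expressed in other tissues, was close to the detection limit. Its CPM was 0.30, 0.327 and 0.547 in CTTN libraries and 0.0548, 0.164 and 0.272 in controls. The groups did not overlap, but the counts behind them were 2.06 to 19.9 fragments. Its log2 difference was 1.24 ± 0.53 (adjusted p = 0.165, edgeR). Because the filter on low counts kept it through the CTTN group, in which it was high, that test is given no weight. The full transcript ENST00000221930 (TSS67134) was at 0.0643 ± 0.04 FPKM in controls and 0.148 ± 0.05 in CTTN libraries. Short transcripts ENST00000600196 (TSS67133) and ENST00000597453 (TSS67135) held at most 2.83 fragments in any library, and none of the 3 sites passed the filter.

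TGFBR2, the ligand-binding type II kinase, fell. TGFBR1 and TGFBR3 were not called with all libraries but were called lower without CTTN library 2, and no test was made between the receptors. At chr3:30606502-30694142 (GRCh38), XLOC_034197 read 18.3, 20.1 and 13.9 CPM in CTTN libraries and 26.9, 29.2 and 27.4 CPM in controls. No CTTN library reached the lowest control, and library 3 was the lowest. The log2 difference was -0.68 ± 0.14 (adjusted p = 0.0477, edgeR), or 1.60-fold lower, close to the threshold. Library 2 alone lay at -0.47. Offsets for length and GC gave -0.42 ± 0.06 (adjusted p = 0.00578, edgeR), and leaving out library 3 gave -0.54 ± 0.09 (adjusted p = 0.00952, edgeR). Both annotated isoforms share 1 start-site group, TSS86033, at 27.9 ± 1.55 CPM in controls and 17.5 ± 3.25 in CTTN libraries. The major one, ENST00000295754, was at 4.96 ± 0.50 FPKM in controls and 2.77 ± 0.55 in CTTN libraries, and the minor one, ENST00000359013, at 1.24 ± 0.75 and 1.05 ± 0.52.

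TGFBR1, the type I kinase, read 73.4, 78.4 and 71.9 CPM in CTTN libraries and 82.2, 93.5 and 87.3 CPM in controls. The groups did not overlap, yet the log2 difference of -0.23 ± 0.09 did not pass (adjusted p = 0.133, edgeR). Its direction turned with the length and GC offsets, at 0.20 ± 0.13 (adjusted p = 0.292, edgeR). TGFBR1 has a 6516-base main isoform, and genes over 6 kb had medians of -0.41 and -0.76 in libraries 1 and 3, where TGFBR1 itself lay at -0.26 and -0.29. Its main start-site group, TSS123793, read 73.2, 79.5 and 72.3 CPM in CTTN libraries, below the control mean of 87.3 ± 7.36 CPM (adjusted p = 0.483, edgeR). The isoforms of that group were ENST00000374994 (10.3 ± 0.79 FPKM in controls, 8.51 ± 1.15 in CTTN), ENST00000552516 (5.95 ± 1.79 and 2.29 ± 3.54) and ENST00000374990 (1.27 ± 1.21 and 2.06 ± 2.15).

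TGFBR3, or betaglycan, a co-receptor that presents ligand, read 2.86, 3.54 and 2.16 CPM in CTTN libraries and 3.54, 3.63 and 4.02 CPM in controls. Library 2 was level with the lowest control. The log2 difference was -0.39 ± 0.19 (adjusted p = 0.209, edgeR) and -0.00 ± 0.11 with the offsets. Library 3 of the CTTN group gave -0.79 for TGFBR3, beside a median of -0.76 for all genes over 6 kb. TSS8687, its main site in controls, was at 3.68 ± 0.18 CPM in controls and 2.00 ± 1.33 in CTTN libraries, without overlap (adjusted p = 0.533, edgeR). Reads there were divided between ENST00000212355 (0.421 ± 0.36 FPKM in controls, 0.153 ± 0.22 in CTTN) and ENST00000465892 (0.192 ± 0.33 and 0.176 ± 0.12), which differ by 1 base in length. An isoform from TSS8685, which shares a junction with ENST00000533089, was at 0.176, 0.0327 and 0.246 FPKM in CTTN libraries and near 0 in controls, and did not pass the filter.

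SMAD3, which carries the receptor signal to DNA, fell at the gene level. XLOC_016807 (chr15:66984108-67195195, GRCh38) read 29.2, 36.3 and 23.5 CPM in CTTN libraries and 53.8, 48.6 and 50.1 CPM in controls. The row reaches beyond the RefSeq gene, over 211 kb. A clear gap separated the highest CTTN library from the lowest control. The log2 difference was -0.78 ± 0.16 (adjusted p = 0.0438, edgeR), or 1.71-fold lower. With library 2 alone it was -0.49, with offsets -0.45 ± 0.07 (adjusted p = 0.00898, edgeR), and without library 3 -0.63 ± 0.11 (adjusted p = 0.010, edgeR).

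Several start sites contributed to SMAD3. TSS40467, the site of the 6247-base transcript ENST00000327367, read 27.8, 22.4 and 27.6 CPM in controls and 13.9, 19.7 and 6.86 CPM in CTTN libraries, without overlap (log2 -0.94 ± 0.39, adjusted p = 0.478, edgeR). TSS40470, the site of ENST00000540846, read 13.0, 4.23 and 10.9 CPM in controls and 1.41, 3.01 and 0 CPM in CTTN libraries (adjusted p = 0.506, edgeR). TSS40468, the site of a 5787-base isoform that shares a junction with ENST00000327367, was level, at 11.9 ± 8.15 CPM in controls and 11.4 ± 1.18 in CTTN libraries. TSS40478, the site of ENST00000558763, was at 3.35 ± 2.61 and 3.23 ± 0.67 CPM. For all start-site groups, 11.6% separated the groups toward lower values. None of these sites was called on its own, and the split of reads among overlapping isoforms was estimated by the authors' software.

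SMAD7, the inhibitory SMAD, was not called at the gene level. It read 4.31, 3.97 and 4.11 CPM in CTTN libraries and 4.66, 3.77 and 4.38 CPM in controls, with full overlap. The log2 difference was -0.05 ± 0.13 (adjusted p = 0.803, edgeR). One of its start sites separated the groups: TSS60520, the site of ENST00000545051, read 0.569, 1.49 and 1.52 CPM in controls and 0, 0.0552 and 0 CPM in CTTN libraries. It passed the filter on low counts only through the controls, the group in which it was high, so its values are given with no test. The reads behind it were few, at 20.8 to 56.4 estimated fragments in controls and at most 1.68 in CTTN libraries. The other SMAD7 sites overlapped between groups. TSS60522 (ENST00000262158) was at 2.07 ± 0.51 CPM in controls and 2.17 ± 1.13 in CTTN libraries, TSS60521 (ENST00000591805) at 0.506 ± 0.78 and 1.41 ± 1.52, and TSS60519 (ENST00000588190) at 0.447 ± 0.41 and 0.531 ± 0.53.

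TGFBI, an extracellular matrix protein induced by TGF-beta, had the smallest adjusted p of the 9. XLOC_040182 (chr5:136028895-136063818, GRCh38) read 10.2, 10.8 and 10.2 CPM in CTTN libraries and 23.3, 20.3 and 21.3 CPM in controls. The CTTN libraries were nearly equal and lay far below every control. Its main isoform falls in the class of 2 to 4 kb, whose medians were 0.01, 0.00 and -0.02 in CTTN libraries 1, 2 and 3. That isoform held 61.3, 59.3 and 23.8% of the FPKM of TGFBI in those libraries and 64.3 to 78.5% in controls. What part the length drift had in TGFBI was not tested. The log2 difference was -1.06 ± 0.09 (adjusted p = 0.00405, edgeR), or 2.09-fold lower. Library 2 alone gave -1.01, the offsets gave -1.03 ± 0.08 (adjusted p = 0.0005, edgeR), and the fit without library 3 gave -1.05 ± 0.10 (adjusted p = 0.000718, edgeR). On FPKM the contrast was smaller, at 4.97 ± 0.84 in CTTN libraries and 8.28 ± 1.12 in controls, with a log2 difference of -0.64 ± 0.15 on the log2(FPKM + 1) scale (adjusted p = 0.0940, limma) and -0.73 ± 0.17 on log2(FPKM + 0.1) (adjusted p = 0.0915, limma). TSS100599, the site of the full 2804-base transcript ENST00000442011, read 20.0, 19.3 and 18.5 CPM in controls and 8.08, 9.44 and 4.24 CPM in CTTN libraries. Its log2 difference was -1.41 ± 0.31, called by DESeq2 (adjusted p = 0.00757) and not by edgeR (adjusted p = 0.401). ENST00000508076, a shorter transcript from TSS100606, was at 1.33 ± 0.48 FPKM in controls and 1.5 ± 0.68 in CTTN libraries. TSS100603, the site of ENST00000514554, was at 0.816 ± 0.64 CPM in controls and 1.58 ± 1.90 in CTTN libraries.

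**Figure D3:**
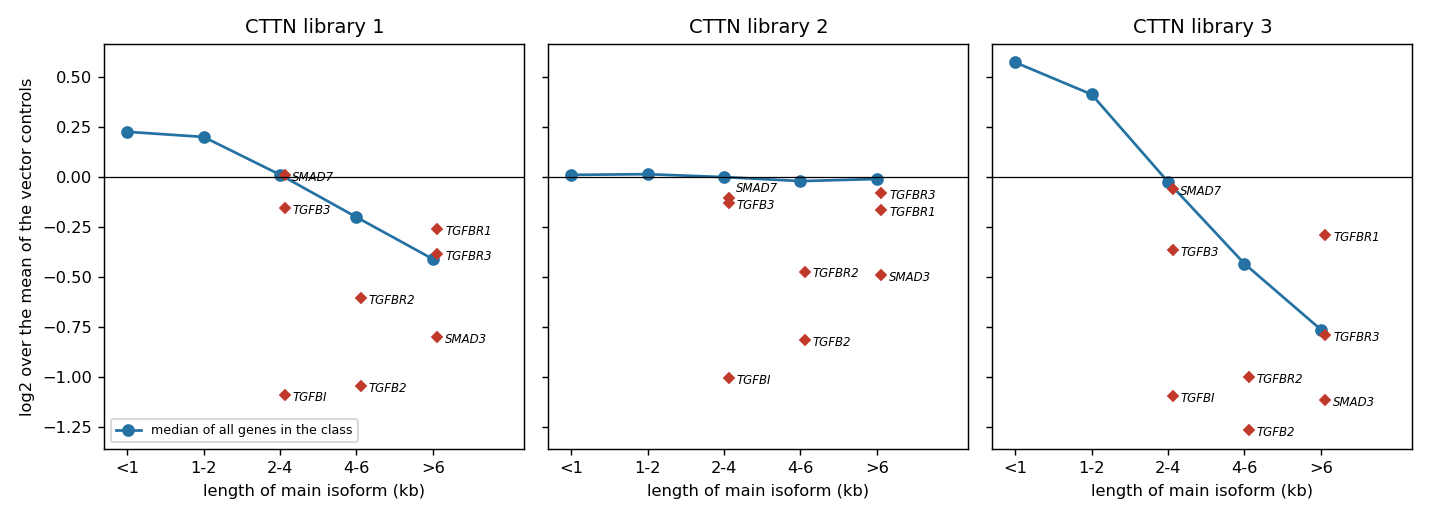
Log2 over the mean of the vector controls for each CTTN library (3 panels), with the median of all genes in 5 classes of main isoform length (line) and the TGF-beta genes at their own class (diamonds, TGFB1 left out for its low counts). In library 2 the line is flat and TGFBI, TGFB2, SMAD3 and TGFBR2 lie at -1.01, -0.81, -0.49 and -0.47.

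**Figure D4:**
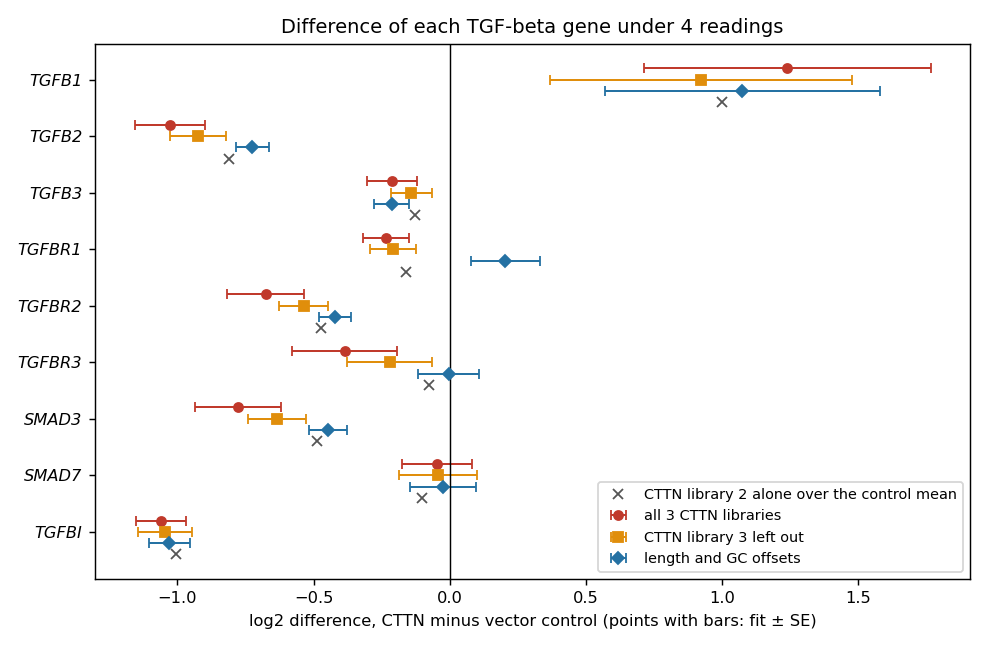
Log2 difference (CTTN minus vector control, horizontal axis) of each gene in the fit to all libraries, without CTTN library 3 and with length and GC offsets (± SE), and for CTTN library 2 alone (crosses, no error). TGFBI keeps about the same value in all 4, TGFB2, TGFBR2 and SMAD3 stay below 0, and TGFBR1 changes side with the offsets.

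The 4 genes called with all libraries were also called with the offsets, where 5.85% of all genes were called lower, without library 3 (3.99% lower) and by DESeq2 (6.71% lower). Under the offsets the median of the 9 genes was -0.21. Leaving out CTTN library 1 left none of the 9 called by edgeR (4 lower at an unadjusted p under 0.05, beside 7.61% of all genes), and leaving out control library 1, 2 or 3 left only TGFBI, where 0.197, 0.102 and 0.205% of all genes were called. Without CTTN library 2, 7 of the 9 were called, all lower, in a fit that called 24.2% of all genes lower. With limma on log2(FPKM + 1) or log2(FPKM + 0.1) none was called, while 7 and 6 had an unadjusted p under 0.05, against 23.6% of all genes in either fit. TGFB1, given no weight above, was the 1 higher gene in each of these counts. With library totals alone edgeR called TGFB2 and TGFBI, and 1.75% of all genes lower.

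The rest of the pathway was read from 82 genes in 5 lists, where 64 were tested. Over all genes, 30.2% had an unadjusted p under 0.05 by edgeR and 13.8% were called by DESeq2, and the small counts of the first 4 lists are to be read against these shares. For latency and activation (LTBPs, integrins and other factors that store or release ligand), 0 of 10 tested genes passed in edgeR, with 2 at an unadjusted p under 0.05 and 2 called by DESeq2. LTBP4, which had the highest mean FPKM of them in controls (28.7 ± 1.66, within the spread of LTBP3 at 28.5 ± 0.88), was at 52.4 CPM in controls and 66.0 in CTTN libraries (log2 0.33 ± 0.08, adjusted p = 0.0623, edgeR), and with the offsets at a log2 difference of 0.07 ± 0.06 (adjusted p = 0.397, edgeR). For activin-type ligands and their antagonists, 0 of 4 passed in edgeR, 0 at an unadjusted p under 0.05 and 0 by DESeq2. INHBB, the inhibin beta B subunit, was at 298 CPM in controls and 267 in CTTN libraries (log2 -0.16 ± 0.07, adjusted p = 0.176, edgeR).

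Other type I, type II and co-receptors gave 0 of 6 in edgeR, 2 at an unadjusted p under 0.05 and 1 by DESeq2. ENG (endoglin), a co-receptor, was at 69.9 CPM in controls and 90.6 in CTTN libraries, without overlap (log2 0.37 ± 0.08, adjusted p = 0.0524, edgeR, and 0.00674 by DESeq2). Of 19 other SMADs and SMAD regulators, 0 passed in edgeR, 6 had an unadjusted p under 0.05, all lower (14% of all genes tested), and DESeq2 called 2. Negative log2 differences were found for 16 of these 19, against 49.3% of all genes, with a list median of -0.15, which the offsets moved to -0.04. The row with the highest FPKM in this list joins the corepressor TGIF2 with C20orf24, and it read 281 CPM in controls and 336 in CTTN libraries (adjusted p = 0.294, edgeR).

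Of the TGF-beta target genes, 2 of 25 tested passed (8% against 4.2% of all genes), 1 higher and 1 lower. ANGPTL4, a secreted inhibitor of lipoprotein lipase, read 6.90, 3.78 and 7.28 CPM in CTTN libraries and 1.33 CPM on average in controls. It was higher in all 3 libraries (log2 2.17 ± 0.28, adjusted p = 0.0124, edgeR). NEDD9, a focal adhesion scaffold, was at 28.1 CPM in CTTN libraries and 49.7 in controls (log2 -0.82 ± 0.12, adjusted p = 0.0185, edgeR). ID3, an inhibitor of helix-loop-helix factors with the highest control FPKM of the list (125 ± 3.30), read 170, 137 and 241 CPM in CTTN libraries and 118, 111 and 119 in controls (log2 0.65 ± 0.19, adjusted p = 0.0941, edgeR). Its log2 difference was 0.40 ± 0.10 without CTTN library 3 (adjusted p = 0.0398, edgeR) and 0.36 ± 0.09 with the offsets (adjusted p = 0.0454, edgeR). Groups did not overlap for 17 of the 25, with 11 higher and 6 lower, beside 19.3% and 19.4% of all genes. With the offsets 4 were called higher and 4 lower, where 7.37% and 5.85% of all genes were. ACTA2, among the higher genes in both of these counts, passed the filter on low counts only through the CTTN group and is given no weight in either. The count of targets called was 0 without CTTN library 1, without any 1 control and with the replicate block, and 12 of 25 (8 higher, 4 lower) without CTTN library 2, a fit that called 47.2% of all genes (23% higher), so that count is near the background. ANGPTL4 had an adjusted p of 0.0776 and NEDD9 of 0.123 without CTTN library 1 (edgeR). ANGPTL4 is also known as a target of PPAR nuclear receptors and of hypoxia, and ID3 answers to further pathways.

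**Figure D5:**
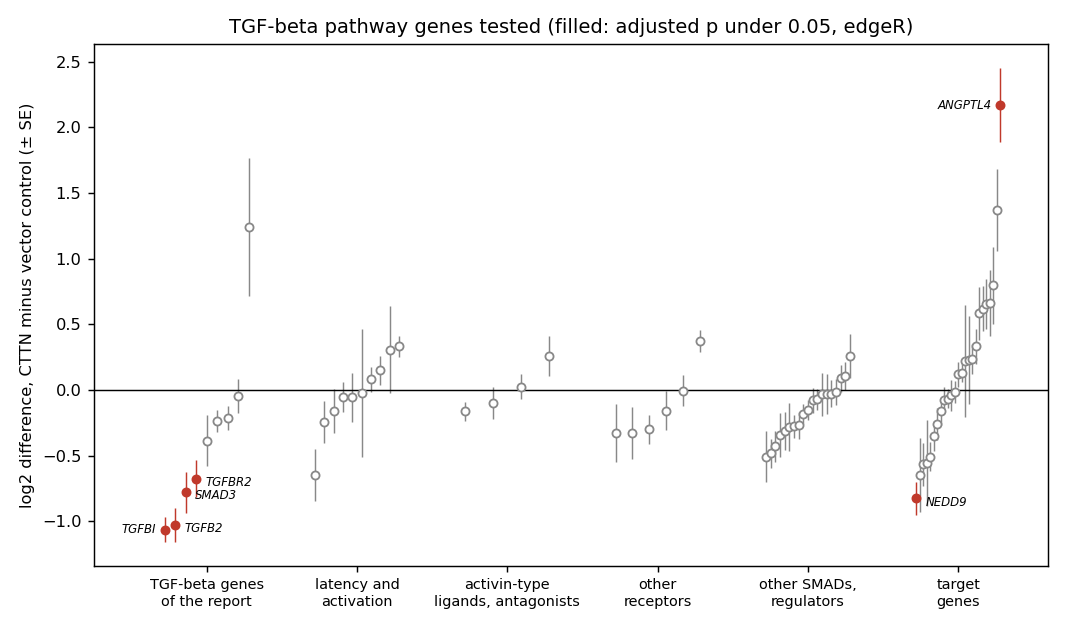
Log2 difference (CTTN minus vector control, ± SE, vertical axis) of the 9 TGF-beta genes and of the tested genes in 5 pathway lists, 1 point per gene, filled where the adjusted p was under 0.05 by edgeR. Filled points are TGFBI, TGFB2, SMAD3 and TGFBR2 among the 9 genes and ANGPTL4 and NEDD9 among the targets.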

How the data were processed

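Polyadenylated RNA of 3 vector control and 3 CTTN libraries was sequenced as read pairs from a stranded kit. The authors deposited Cufflinks-type tables of estimated counts, scaled per library, and of FPKM for genes, start-site groups and isoforms. The submitters' processing notes name bcl2fastq 2.20.0, Trimmomatic, STAR, Cufflinks and GRCh38, the methods name hg19, and the loci match GRCh38. The strand setting of the counting is not given in the sources used here. Single-fragment values gave the scale factors behind the 34.9 to 41.3 M fragments per library, with 77.8 to 97.5% of values then whole within 0.01. Control numbers follow the deposited sample sheet, since the sample descriptions number these columns differently.

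Estimated counts were rounded and tested in edgeR 4.0.16 (filterByExpr, TMM, quasi-likelihood, group only), with Benjamini-Hochberg adjustment over all features tested and a threshold of 0.05. CPM and SD are descriptive. FPKM served for levels between genes. Alternatives were DESeq2 1.42.0 with its own size factors, upper-quartile scaling, library totals only, no filter, a mean count of 10, a fold limit of 1.5, limma 3.58.1 on log2(FPKM + 1) and log2(FPKM + 0.1), and each library left out in turn. Added after seeing the data were loess offsets (span 0.3) on main isoform length and GC content, counts multiplied back by the scale factors, limma-voom with library weights, and a replicate block numbered from the sample sheet. GC content was known for 99.6% of tested genes. The fits were tested on simulated data.

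The 9 members and the pathway and marker lists were chosen with earlier results of these data known. All members were named, and from each list the called genes (up to 6) and the gene with the highest control FPKM, while start sites and isoforms were named at 10% or more of a member's FPKM. One gene of the target list and 1 of the immune markers are not reported here and were left out of those lists' counts and sums. Isoform values were not tested. Coding-sequence tables and the tables of attributes beyond names, loci and lengths were not used.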

Additional observations from a re-analysis of the deposited data

How the results depend on the processing

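All numbers in this section come from refits of the same 6 libraries. The count of genes called (606) became 1900 with DESeq2, 185 and 180 with limma on log2(FPKM + 1) and log2(FPKM + 0.1), 109 with the replicate block, 1908 with length and GC offsets and 9520 with voom library weights, where CTTN library 1 alone held a weight of 9.18 and the other libraries 0.163 to 1.80. It ranged from 15 to 6953 when 1 library was left out: 18 without CTTN library 1, 6953 without CTTN library 2, 1244 without CTTN library 3, and 29, 15 and 30 without control library 1, 2 and 3. The count of start-site groups called (0) became 766 with DESeq2, 7 with the offsets and 9313 with voom weights.

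Of the 9 TGF-beta genes, 4 were called. The count became 2 with library totals only (TGFB2 and TGFBI), where 1.75% of all genes were called lower. It was 0 and 0 with limma on FPKM at either pseudocount (7 and 6 at an unadjusted p under 0.05, beside 23.6% of all genes). With the replicate block it was 2 (TGFB2 and TGFBI), in a fit that called 109 of the 14433 genes tested. With voom weights it was 8, in a fit that called 9520 of them. The count ranged from 0 to 7 when 1 library was left out. It was 0 without CTTN library 1 and 7 without CTTN library 2, where 47.2% of all genes were called. It was 1 (TGFBI) without control library 1, 2 or 3, where 0.102 to 0.205% of all genes were called. TGFB2, TGFBI, TGFBR2 and SMAD3 were negative under all 17 alternatives run for each. TGFBR1 turned to 0.20 with the offsets, and SMAD7 to 0.034 with voom weights and from -0.13 (without control library 2) to 0.012 (without control library 1) when 1 library was left out. The count of target genes called (2) ranged from 0 to 12 when 1 library was left out and was 0 with the block. The counts of the other lists (0 each) ranged up to 3 for latency, 1 for activin-type ligands, 4 for other receptors and 8 for other SMADs. Each was highest without CTTN library 2. ANGPTL4 had an adjusted p up to 0.0986 and NEDD9 up to 0.123 across their 17 alternatives, with no change of sign. The cause of these shifts was not tested.

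Same-numbered libraries did not pair, with correlations of their deviations from the group means of 0.03, 0.08 and -0.19, so the replicate block shares only a number. Under the block TGFBR2 was at -0.69 (adjusted p = 0.0855, edgeR) and SMAD3 at -0.80 (adjusted p = 0.0860, edgeR). CTTN itself stayed positive in all 17 alternatives, but its adjusted p in edgeR was 0.0563 under the block and 0.123 to 0.154 without CTTN library 1 or any 1 control. TGFB1 rested on at most 19.9 fragments in a library, and the named SMAD7 start sites on at most 116.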

Other observations

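Among the pathway lists, further genes passed in edgeR with the length and GC offsets and not in the fit without them, and those of the latency and target lists are named here after their values were seen. Of the 10 latency genes tested, 2 were called higher and 1 lower with the offsets, where 7.37% and 5.85% of all genes were. LTBP1, which tethers latent TGF-beta to matrix, was at 0.27 ± 0.05 on the log2 scale with offsets (adjusted p = 0.0115, edgeR) and at -0.05 ± 0.19 without them. THBS1, a matrix activator of latent TGF-beta, was at 0.28 ± 0.06 with offsets (adjusted p = 0.0277, edgeR) and at -0.16 ± 0.16 without them, so both changed sign. ITGAV, the integrin alpha V chain that can release ligand, was lower under both, at -0.23 ± 0.05 (adjusted p = 0.0224, edgeR with offsets) and -0.65 ± 0.19.

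Target genes newly passing with the offsets went in both directions. ID3 was at 0.36 (adjusted p = 0.0454) and TSC22D1 at 0.27 (0.0352), while CCN2 (listed as CTGF) was at -0.59 (0.0450), BHLHE40 at -0.37 (0.00598) and TPM1 at -0.18 (0.0390), all by edgeR. ACTA2 is counted among those called higher with the offsets, but it read 0.245 to 0.274 CPM in controls and 0.464 to 0.821 CPM in CTTN libraries, so it was kept by the filter on low counts through the group in which it was high, and its test is given no weight. FST, an activin antagonist that did not pass the filter on low counts, was at 0.409 CPM in CTTN libraries and 0.0548 CPM in controls, without overlap between groups and without a test.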
